A study of Homo sapiens with 21 samples.

Results

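The clustered protocadherin genes were examined in SUM149PT, an inflammatory breast cancer cell line whose labels give it as lacking estrogen and progesterone receptors. Members were all protein-coding genes whose symbol starts with PCDHA, PCDHB or PCDHG followed by a letter or number, and 53 of the 60617 genes in the tables met this rule: 15 of the alpha, 16 of the beta and 22 of the gamma cluster. A further 6 pseudogenes of the clusters were left out. The 7 lines were the single-cell clones EM1, EM2, EM3, M2, M1 and E and the uncloned Parental line, all untreated, with 3 libraries of polyadenylated RNA each and 21 in all. The series title concerns plasticity of an intermediate epithelial-mesenchymal transition state. Each clone is the progeny of a single cell, so a difference between clones is a difference between single isolates. The labels do not state whether replicate libraries derive from separate cultures, so a p-value here covers only library-to-library spread, which may be technical.

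Clustered protocadherins are cadherin-family cell-surface proteins, best known from neurons, where each cell uses its own combination of them and matching combinations on another membrane are recognised. In the alpha and gamma clusters each member has its own promoter and its own large first exon, which is spliced to a set of exons shared by the whole cluster and coding for the common inner tail. Beta members are single-exon genes without such a shared tail. The factor CTCF and the cohesin ring, which hold distant enhancers near promoters, take part in the choice of promoter, DNA methylation silences promoters that are not chosen, and a conserved element with the core CGCT lies before most members. The C-type members PCDHAC1, PCDHAC2, PCDHGC3, PCDHGC4 and PCDHGC5 lie at the ends of the alpha and gamma clusters and are controlled differently from the others.

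In GENCODE 29 on GRCh38 all members lie on the plus strand of chromosome 5 between 140786136 and 141512981, over 727 kb. The alpha cluster occupies 140786136 to 141012347, the beta cluster 141051135 to 141249365 and the gamma cluster 141330571 to 141512981. RefSeq (GRCh38.p14) promoters, from 250 bases before to 50 after each gene start, were matched for 47 members. The nonamer GGTGGCGCT, on either strand, was found in 13 of 14 beta promoters, in 0 alpha and 0 gamma promoters and in 176 of all 35116 promoters (0.5%). GATGTCGCT was found in 9 of 13 alpha promoters, in 0 beta and 0 gamma promoters and in 37 of all promoters (0.11%). Both contain CGCT, which was in 92.3% of alpha, 100% of beta and 100% of gamma promoters and in 70.01% of all. The nonamers were chosen after the promoters had been seen, and a match describes letters, not binding. Windows of 49 bases around the nonamer, in capitals, are shown for 4 beta members that were high in clone M2 and for the beta members PCDHB9 and PCDHB14 that were not. They are also shown for alpha members with (PCDHA4) and nearly without (PCDHA8) reads. The alpha members PCDHAC1 and PCDHAC2, with 760 and 750 counts over all 21 libraries, lacked GATGTCGCT, and PCDHA3 had no matched promoter.
PCDHB2 (chr5:141094535-141094583, + strand): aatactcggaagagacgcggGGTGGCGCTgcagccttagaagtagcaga
PCDHB8 (chr5:141177768-141177816, + strand): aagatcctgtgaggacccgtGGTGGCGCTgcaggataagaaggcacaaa
PCDHB16 (chr5:141182301-141182349, + strand): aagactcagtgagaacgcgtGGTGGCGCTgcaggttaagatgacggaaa
PCDHB12 (chr5:141208634-141208682, + strand): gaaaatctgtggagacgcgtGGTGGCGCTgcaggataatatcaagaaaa
PCDHB9 (chr5:141187065-141187113, + strand): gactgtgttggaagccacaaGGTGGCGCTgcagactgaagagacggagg
PCDHB14 (chr5:141223254-141223302, + strand): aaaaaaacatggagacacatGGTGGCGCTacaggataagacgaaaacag
PCDHA4 (chr5:140806970-140807018, + strand): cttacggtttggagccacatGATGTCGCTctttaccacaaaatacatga
PCDHA8 (chr5:140841121-140841169, + strand): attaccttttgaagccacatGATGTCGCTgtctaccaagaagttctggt
Of the 13 beta members with GGTGGCGCT, 9 were higher in M2 than in E by the test described below, 2 were tested and not higher, and 2 had too few reads to be tested. Over all genes 24.6% were higher. Of these 9 members, 7 had enough reads to be tested only through M2, and a link of the nonamer to the level was not tested.

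Members share sequence, which limits how their reads can be told apart. The shared exons are 2866 bases long in the alpha cluster, a median of 54.5% of a member's transcript, and 2181 bases in the gamma cluster, a median of 47.3%. The share of a member's 50-base windows found in no other gene had a median of 50.7% (range 34.8 to 76.9) for alpha, 83.6% (50.7 to 98.6) for beta and 55.9% (28.9 to 66.0) for gamma members. RSEM, the counting program, divides a read that matches several genes, and 73.1% of the members' nonzero expected counts were more than 0.01 from a whole number, against 19.8% for all genes. That share was 56.3% for alpha, 89.4% for beta and 72% for gamma members. The value of a single member is therefore partly an estimate in all 3 clusters. Antisense genes overlap 19 members, and the strand setting of the counting is not given in the sources used here. The 12 overlapping antisense genes together held 7 counts in M2 and 5 in E.

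**Figure D1:**
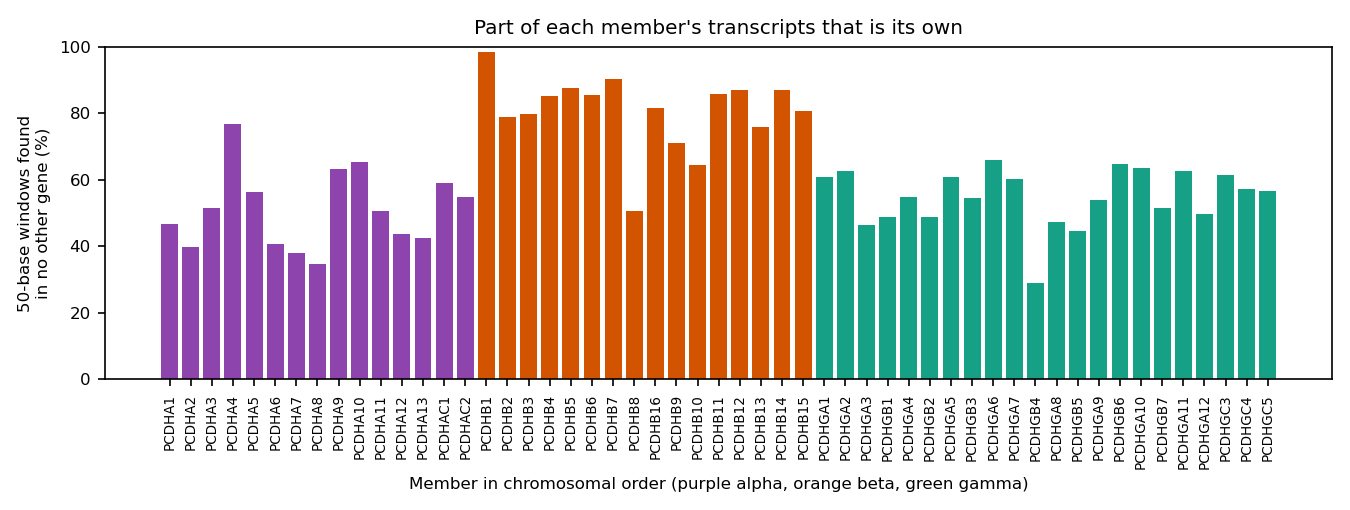
Share of 50-base windows of each member's transcripts that occur in no other gene (vertical axis, percent), with members in chromosomal order and coloured by cluster. Beta members have a median of 83.6%, above the medians of alpha (50.7%) and gamma (55.9%) members.

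All members together were weakly expressed. Libraries held 24.6 to 48.1 counts in units of 1e6, of which the members took 23.8 to 90.5 in every 1e6. Only 6 of 53 members reached a mean of 1 TPM (counts scaled for transcript length and library total) in any line: PCDHAC2 in the alpha cluster, PCDHB2, PCDHB9 and PCDHB14 in the beta cluster, and PCDHGB2 and PCDHGC3 in the gamma cluster. At the other end, 12 members had under 30 counts over all 21 libraries. Of the 53 members, 30 passed the low-count filter and were tested (4 alpha, 12 beta and 14 gamma), and the other 23 are described by their counts. By mean effective length the clone libraries fell into a short set, with all 3 libraries of E and replicate 3 of each other clone, and a long set with the other 10. The line labels were set against markers: vimentin (VIM), a filament protein of mesenchymal cells, averaged 2102 ± 552 TPM in M2 and 2664 ± 468 in M1, against 13.8 ± 1.54 in E (SD, n = 3 each). By the test described below, VIM and the mesenchymal marker ZEB1 were higher than E in EM1, EM2 and EM3 too. The mesenchymal marker FN1 was higher than E in EM2 and M1 but did not pass in M2. In M2 against M1, FN1 was lower and the epithelial keratin KRT18 higher. The epithelial markers CDH1, EPCAM, KRT8 and KRT18 were lower than E in both M clones. Of 12 neuronal markers, which could accompany these genes, RBFOX3, ELAVL3, ELAVL4, STMN2, NEFM and DCX stayed at or under 0.05 TPM on average in every line, and the summed level of all 12 was 50.1 to 129.0 TPM in M2 and 62.7 to 86.9 TPM in E, with TUBB3 the highest of them on average in both lines.

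**Figure D2:**
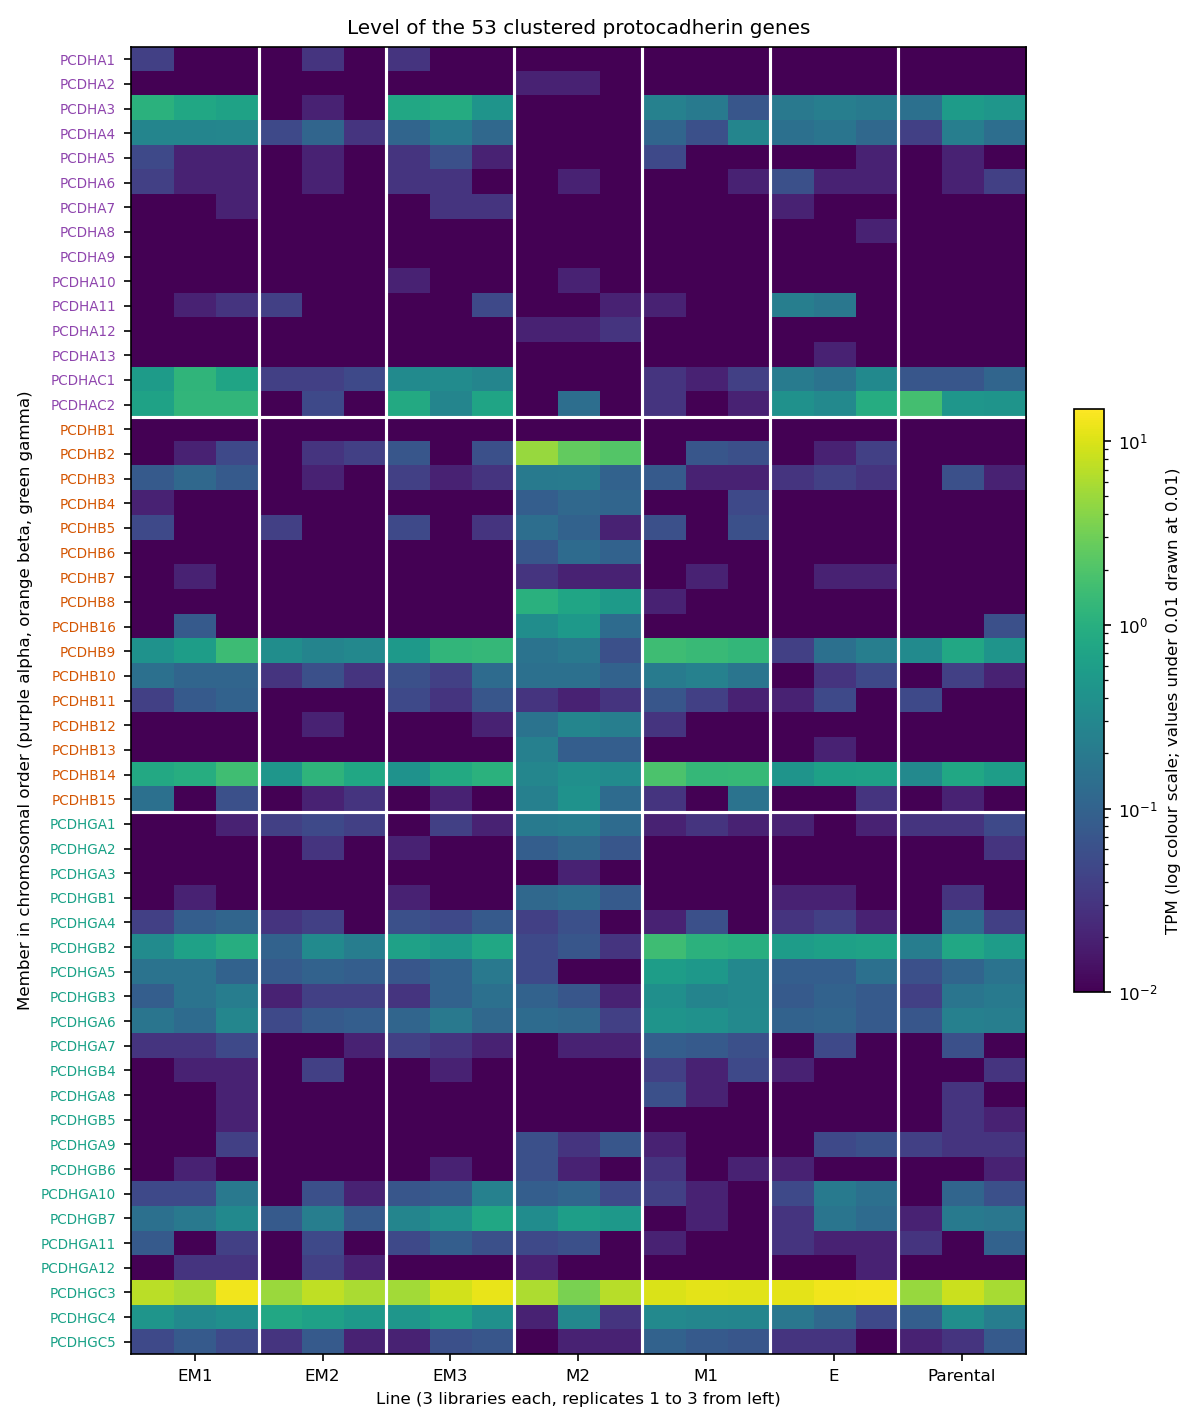
TPM of the 53 members (rows, chromosomal order) in the 21 libraries (columns, 3 per line) on a log colour scale with a floor of 0.01. PCDHGC3 is bright in every library, the alpha rows are dark in EM2 and M2, and many beta rows are brighter in M2 than in the other lines.

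The clusters were divided differently among the lines. The summed level of the alpha cluster averaged 3.12 ± 0.43 TPM in EM1, 0.20 ± 0.11 in EM2, 1.93 ± 0.27 in EM3, 0.13 ± 0.08 in M2, 0.43 ± 0.11 in M1, 1.35 ± 0.26 in E and 1.53 ± 0.40 in Parental (SD, n = 3 each). The libraries of EM1 (2.75 to 3.59 TPM) lay above all others. By TPM those of EM2, M2 and M1 (0.08 to 0.52 TPM) lay below those of EM1, EM3, E and Parental (1.13 TPM or more). The beta cluster had another order, with 6.02 ± 1.95 TPM in M2, 3.42 ± 0.45 in M1, 2.42 ± 0.96 in EM1, 2.06 ± 0.78 in EM3, 1.25 ± 0.36 in EM2, 0.87 ± 0.26 in E and 1.20 ± 0.51 in Parental. The 3 M2 libraries (8, 5.95 and 4.11 TPM) lay above every other library, and M1 was next, though its range (3.14 to 3.94 TPM) overlapped that of EM1 (1.74 to 3.52 TPM). The gamma cluster held the largest sums, with 10.84 ± 4.34 TPM in EM1, 7.55 ± 1.54 in EM2, 11.16 ± 3.70 in EM3, 6.93 ± 1.3 in M2, 13.67 ± 0.47 in M1, 13.93 ± 1.26 in E and 8.04 ± 2.7 in Parental. Its libraries overlapped in most pairs of lines, but those of EM2 (6.28 to 9.26 TPM), M2 (5.45 to 7.86 TPM) and Parental (5.44 to 10.83 TPM) lay below those of M1 (13.21 to 14.14 TPM) and E (12.48 to 14.78 TPM). In these bulk samples fewer cells using a gene and less RNA per cell cannot be told apart.

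**Figure D3:**
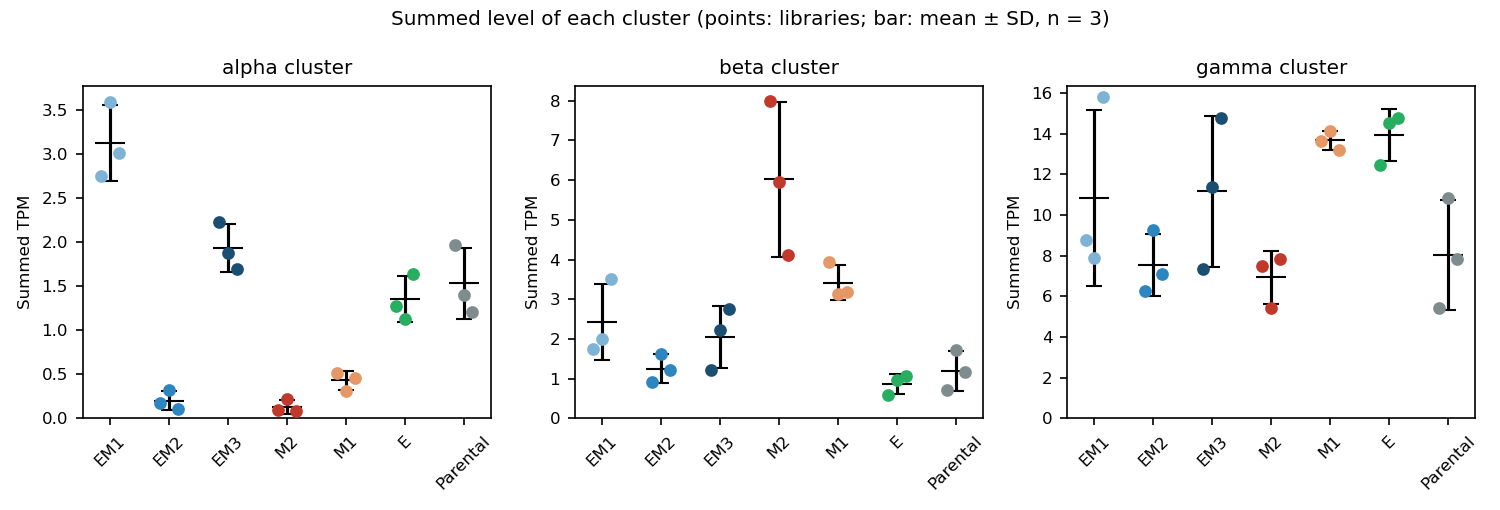
Summed TPM of the alpha, beta and gamma cluster in each library (points) with mean ± SD per line (n = 3). Alpha is highest in EM1 (3.12 TPM) and lowest in M2 (0.13 TPM), beta is highest in M2 (6.02 TPM), and gamma is lower in EM2 (7.55 TPM), M2 (6.93 TPM) and Parental (8.04 TPM) than in M1 (13.67 TPM) and E (13.93 TPM).

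Scaling by CPM (counts scaled for library total only) instead of TPM kept these orders for M2: the alpha sum was 0.054 times, the beta sum 5.08 times and the gamma sum 0.434 times that of E (0.0965, 6.92 and 0.498 times by TPM). Other pairs of lines moved with the scale. The gamma sum of M1 was 0.982 times that of E by TPM, with overlapping libraries, and 0.767 times by CPM, without overlap. By CPM the gamma libraries of Parental and M1 overlapped. The beta sum of EM3 was 2.37 times that of E by TPM, without overlap, and 1.34 times by CPM, with overlap. The alpha sum of E over Parental was 0.882 by TPM and 1.42 by CPM, and the libraries of these lines overlapped on both scales. PCDHAC2 moves with this, since some of its annotated transcripts are short and lack the variable first exon: its effective length was 145 bases in Parental replicate 1, where 12 counts made 1.71 TPM, and 3524 bases in E replicate 1, where 86 counts made 0.40 TPM. PCDHAC2 is therefore compared by counts below. The effective length of PCDHB9 moved as well: it was 4103 bases in E replicate 1, where 11 counts made 0.04 TPM. In E replicate 3 it was 1201 bases, and 19 counts made 0.23 TPM. Its TPM values below are therefore to be read beside its counts and fitted changes.

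Across the 7 lines the members were tested with edgeR on rounded expected counts, and 24 of the 30 tested members passed at a Benjamini-Hochberg (BH) adjusted p under 0.05. Of all 18632 genes tested, 62.5% did. Among the members that passed, 7 beta and 2 gamma members reached the low-count filter only through M2, where they are high. The 6 that did not pass were PCDHB11, PCDHGA4, PCDHGA7, PCDHGA10, PCDHGA11 and PCDHGC5. The comparisons with E share its 3 libraries, and E lies wholly in the short set, so each comparison of a clone with E was also fitted with the set as a term.

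M2 against E compares a clone with an M name, taken as mesenchymal, with the clone named E for epithelial. In M2 the alpha cluster was nearly silent, beta members were higher or did not pass, and gamma members went both ways. With edgeR, 12 of the 30 tested members were higher and 8 lower. Of all genes 51.3% passed this comparison, 24.6% higher and 26.8% lower. By cluster, 4 of 4 tested alpha members were lower, 9 of 12 beta members were higher and none was lower, and 3 of 14 gamma members were higher and 4 lower. The low-count filter asks for enough reads in 3 libraries, and 7 of the 9 higher beta members (PCDHB2, PCDHB4, PCDHB8, PCDHB12, PCDHB13, PCDHB15 and PCDHB16) and 2 of the 3 higher gamma members (PCDHGA1 and PCDHGA2) reached that level in no library outside M2. They passed through the line where they are high, so these counts and medians describe the tested members and support nothing about the clusters as a whole. The median log2 fold change was -0.24 over the 30 members and 0.01 over all genes, a median that the opposite directions of the clusters leave close to 0.

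PCDHB2, a beta member that E hardly used, became the leading beta member in M2. It measured 4.81, 2.57 and 2.11 TPM in the M2 libraries, against 0.01, 0.02 and 0.04 TPM in E and 0.01, 0.07 and 0.06 TPM in M1. The M2 libraries all stood far above every library of the other 6 lines, where the highest was 0.07 TPM. The log2 fold change over E was 6.59 ± 0.82 (SE; edgeR, BH-adjusted p = 4.87e-06), and PCDHB2 made up 52.5% of the summed beta TPM in M2. PCDHB8 had 98, 47 and 81 counts in M2, against 0, 0 and 0 in E and 2, 1 and 0 in M1. That is at least 96.1-fold higher than E, with E set to a floor of 3 counts over its 3 libraries, and 86.5 times M1 (95% counting interval 29.2 to 423). Only 50.7% of the windows of PCDHB8 are its own, the lowest share in the beta cluster. PCDHB16 had 66, 33 and 28 counts in M2, against 1, 1 and 1 in E, a ratio of 53.8 (18 to 264), and 0 in all 3 M1 libraries, so that M2 was at least 48.4-fold higher than M1.

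Most other beta members went the same way at lower levels. PCDHB12 had 19, 20 and 35 counts in M2, against 1, 0 and 0 in E (ratio 95.3, 16.6 to 3810), and PCDHB4 had 13, 12 and 18 counts, against 0 in E, at least 17.8-fold higher. PCDHB3, PCDHB10, PCDHB13 and PCDHB15 rose by log2 fold changes of 1.94, 1.84, 3.26 and 2.90, with edgeR BH-adjusted p from 0.00911 to 0.0126. The calls of PCDHB3, PCDHB10 and PCDHB13 were at the edge: adjusted p was 0.0589 without E replicate 3, 0.0615 without E replicate 1 and 0.0503 without M2 replicate 1, and that of PCDHB13 was 0.0616 with DESeq2. Among untested beta members PCDHB5 had 30 counts over the M2 libraries and 0 over those of E, at least 12.7-fold higher, and PCDHB6 had 35 and 1, a ratio of 44.5 (7.47 to 1810). PCDHB1 had 4 and 0. Read counts of at least 30, after rounding, over a line's 3 libraries were reached by 13 of 16 beta members in M2 and by 2 of 16 in E. These ratios cover counting error only.

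The beta members that led in the other lines did not share this pattern. PCDHB14 measured 0.29, 0.38 and 0.34 TPM in M2, against 0.44, 0.63 and 0.65 TPM in E, and did not pass the test (log2 fold change -0.79). PCDHB9 measured 0.16, 0.19 and 0.06 TPM in M2, against 0.04, 0.15 and 0.23 TPM in E, with overlapping libraries (log2 fold change 0.40). Both carry the promoter nonamer, as 13 of 14 beta promoters do, and its part in these levels was not tested.

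All 4 alpha members with enough reads fell in M2. PCDHA3 had 0, 0 and 2 counts in M2, against 55, 72 and 62 in E, a ratio of 0.0135 (0.00162 to 0.0495; edgeR, BH-adjusted p = 1.57e-06). PCDHAC1 had 1, 0 and 2 counts, against 47, 42 and 85, a ratio of 0.022 (0.0045 to 0.0655; edgeR, BH-adjusted p = 2.39e-07). PCDHAC2 had 0, 2 and 0 counts, against 86, 81 and 121, and PCDHA4 had 2, 1 and 0, against 36, 45 and 30. M2 and E libraries did not overlap for any of the 4. The other 11 alpha members had at most 18 counts over the 3 libraries of any line (PCDHA5 in EM3) and were not tested, and PCDHA12 and PCDHA2 were seen in M2 with 7 and 4 counts and in E with 0 and 0.

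Gamma members went both ways. The first members in the array, PCDHGA1 and PCDHGA2, rose in M2: PCDHGA1 had 30, 23 and 30 counts in M2, against 4, 4 and 5 in E (log2 fold change 2.98 ± 0.48 SE; edgeR, BH-adjusted p = 4.85e-05), and PCDHGA2 had 15, 15 and 18, against 0, 2 and 2. PCDHGB2, a few genes further along, measured 0.05, 0.07 and 0.03 TPM in M2, against 0.57, 0.64 and 0.68 TPM in E, and fell by 3.82 on the log2 scale (edgeR, BH-adjusted p = 6.77e-05). Its neighbour PCDHGA5 had 6, 0 and 0 counts, against 23, 23 and 39, and fell too (edgeR, BH-adjusted p = 0.00103). PCDHGB7, late in the variable array, rose with 0.35, 0.61 and 0.49 TPM in M2, against 0.03, 0.17 and 0.13 TPM in E (edgeR, BH-adjusted p = 0.0355). That call ended without E replicate 1 (0.126), E replicate 3 (0.0655), M2 replicate 2 (0.0721) or M2 replicate 3 (0.0792).

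PCDHGC3, the C-type member that carries most gamma RNA, made up 77.9 to 89.2% of the summed gamma TPM in every line. It measured 6.03, 3.46 and 6.76 TPM in M2, against 11.17, 12.84 and 13.26 TPM in E, and fell by 1.41 on the log2 scale (edgeR, BH-adjusted p = 0.00774). With the library set as a term the change was -0.95 (adjusted p = 0.00888). Its level moved with the set in EM1 and EM3: EM1 had 7.13 and 5.92 TPM in the long-set libraries and 12.95 TPM in the short-set library, and EM3 had 5.47 and 8.98 TPM and 11.81 TPM. In M2 the short-set library was the highest too, with 6.76 TPM against 6.03 and 3.46 TPM, and 34.5 CPM against 22.7 and 12.5 CPM. By TPM the level did not move with the set in EM2 (5.01 and 7.38 TPM in the long set, 5.92 TPM in the short) or M1 (9.95 and 11.2 TPM, 10.78 TPM). By CPM the short-set library of M1 was its highest (46.5 CPM against 40.5 and 38.3 CPM). The part of the set in the difference from E beyond that fit was not tested. PCDHGC4 fell in M2 by 1.61 on the log2 scale (edgeR, BH-adjusted p = 0.0257), with 0.02, 0.30 and 0.03 TPM in M2 overlapping 0.18, 0.12 and 0.05 TPM in E. The adjusted p was 0.119 without E replicate 1, 0.0702 without E replicate 2, 0.117 without M2 replicate 1, 0.0792 without M2 replicate 3 and 0.0819 with the M2 and E libraries alone.

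**Figure D4:**
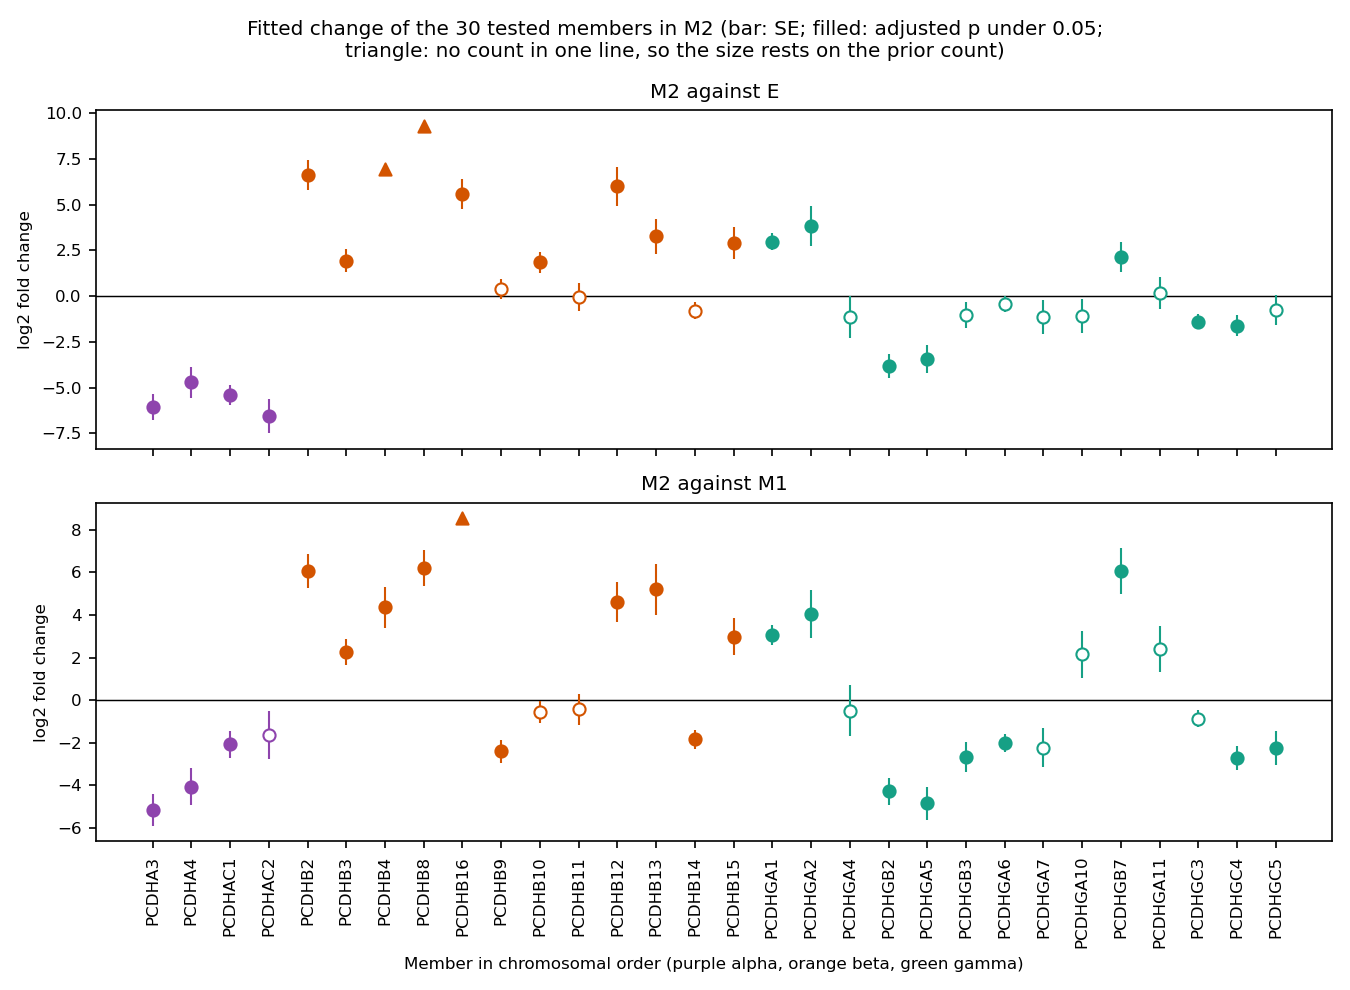
Fitted log2 fold change ± SE (vertical axis) of the 30 tested members in chromosomal order for M2 against E (upper) and M2 against M1 (lower). Filled symbols passed edgeR at an adjusted p under 0.05, and triangles mark members without counts in one line. Alpha members lie below 0 and most beta members above 0 in both panels, with PCDHB9 and PCDHB14 below 0 against M1.

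M2 against M1 sets both M clones side by side. They differed in 22 of 30 tested members, 11 higher and 11 lower in M2, while 41.2% of all genes passed (19% higher and 22.2% lower). By cluster 3 alpha members were lower, 8 beta members were higher and 2 lower, and 3 gamma members were higher and 6 lower. Of the higher members, 7 beta and 2 gamma members passed the low-count filter only through M2. These counts and the median thus describe the tested members and support nothing about the clusters as a whole. The median log2 fold change was -0.52 over the members and -0.02 over all genes. M2 and M1 each held 2 long-set libraries and 1 short-set library, so the set is balanced here.

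The clones used different beta members. M1 relied on PCDHB14 and PCDHB9: PCDHB14 measured 0.29, 0.38 and 0.34 TPM in M2, against 1.89, 1.3 and 1.36 TPM in M1 (log2 fold change -1.85 ± 0.45 SE; edgeR, BH-adjusted p = 0.00303). PCDHB9 measured 0.16, 0.19 and 0.06 TPM in M2, against 1.53, 1.42 and 1.27 TPM in M1 (log2 fold change -2.41 ± 0.55 SE; edgeR, BH-adjusted p = 0.00158). Every M2 library lay below every M1 library for both. By counts PCDHB9 had 17, 14 and 15 in M2 and 109, 99 and 75 in M1. PCDHB2 was higher in M2 by 6.07 ± 0.80 (SE; edgeR, BH-adjusted p = 1.13e-05), together with PCDHB3, PCDHB4, PCDHB8, PCDHB12, PCDHB13, PCDHB15 and PCDHB16. PCDHB15 missed the threshold without M1 replicate 2 (adjusted p = 0.0562), and PCDHB3 in the long set alone (0.0621).

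In the gamma cluster 6 members were lower in M2 and 3 higher. PCDHGB2 measured 0.05, 0.07 and 0.03 TPM in M2, against 1.54, 1.09 and 0.98 TPM in M1 (log2 fold change -4.28 ± 0.64 SE; edgeR, BH-adjusted p = 2.92e-05). PCDHGA5 measured 0.05, 0 and 0 TPM in M2, against 0.58, 0.50 and 0.30 TPM in M1, and the next members PCDHGB3 and PCDHGA6 were lower by 2.67 and 2.01 on the log2 scale. PCDHGB7 went the other way, with 53, 72 and 137 counts in M2, against 0, 4 and 0 in M1 (log2 fold change 6.08 ± 1.08 SE; edgeR, BH-adjusted p = 0.000179). Its neighbours on either side, PCDHGA10 and PCDHGA11, did not pass (edgeR, BH-adjusted p = 0.124 and 0.0809). Both leaned the same way (log2 fold change 2.15 and 2.41), and their M2 and M1 libraries did not overlap. PCDHGC4 and PCDHGC5 were lower in M2, and PCDHGC5 only just (adjusted p = 0.0287, edgeR): it missed without M1 replicate 1 (0.0595), M1 replicate 2 (0.0586), M2 replicate 1 (0.108), M2 replicate 2 (0.0656) or in the long set alone (0.0518). PCDHGC3 and PCDHGA7 did not pass between these clones (edgeR, BH-adjusted p = 0.0968 and 0.0575), yet with the set as a term both were lower in M2 (log2 fold change -0.97 and -2.32, adjusted p = 0.00491 and 0.00863), and their M2 and M1 libraries did not overlap.

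The alpha cluster was low in both clones and lower in M2. PCDHA3 had 0, 0 and 2 counts in M2, against 39, 39 and 14 in M1, a ratio of 0.0246 (0.00293 to 0.0913). PCDHA4 fell as well, with 3 counts over the M2 libraries and 63 over those of M1. PCDHAC1 had 3 and 15 counts, and its call (edgeR, BH-adjusted p = 0.0188) ended without M1 replicate 3 (0.0986), M2 replicate 1 (0.0513) or M2 replicate 2 (0.0685), with DESeq2 (0.0636), in the long set alone (0.0933) and with no low-count filter (0.0821).

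In M1 against E, 3 members were higher and 4 lower, while 36.2% of all genes passed (18.1% higher and 18.1% lower). The higher ones were PCDHB9, PCDHB10 and PCDHGA6. PCDHB9 measured 1.53, 1.42 and 1.27 TPM in M1, against 0.04, 0.15 and 0.23 TPM in E (log2 fold change 2.81 ± 0.55 SE; edgeR, BH-adjusted p = 0.000626). By counts it had 109, 99 and 75 in M1 and 11, 15 and 19 in E. PCDHB10 had 23, 33 and 25 counts in M1, against 2, 5 and 10 in E, and PCDHGA6 had 85, 94 and 78, against 32, 35 and 29. The C-type alpha members were lower: PCDHAC2 had 4, 0 and 4 counts in M1, against 86, 81 and 121 in E, and PCDHAC1 had 4, 4 and 7, against 47, 42 and 85. PCDHA3 and PCDHA4 did not pass. PCDHA3 had 39, 39 and 14 counts in M1, against 55, 72 and 62 in E, without overlap, and with the set term it was lower in M1 (log2 fold change -1.33; edgeR, BH-adjusted p = 0.0215, against 0.163 without that term). PCDHB14 and PCDHGB3 also passed with the set term, higher in M1 (log2 fold change 1.47 and 1.94; edgeR, BH-adjusted p = 0.00605 and 0.0209). PCDHGB7 was lower in M1 (edgeR, BH-adjusted p = 0.00784). PCDHGA10 was lower with 6, 4 and 0 counts, against 13, 57 and 42, but its adjusted p was 0.0704 with the set term, 0.0788 without E replicate 2, 0.053 without E replicate 3, 0.0702 without M1 replicate 2 and 0.0716 without M1 replicate 3.

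**Figure D5:**
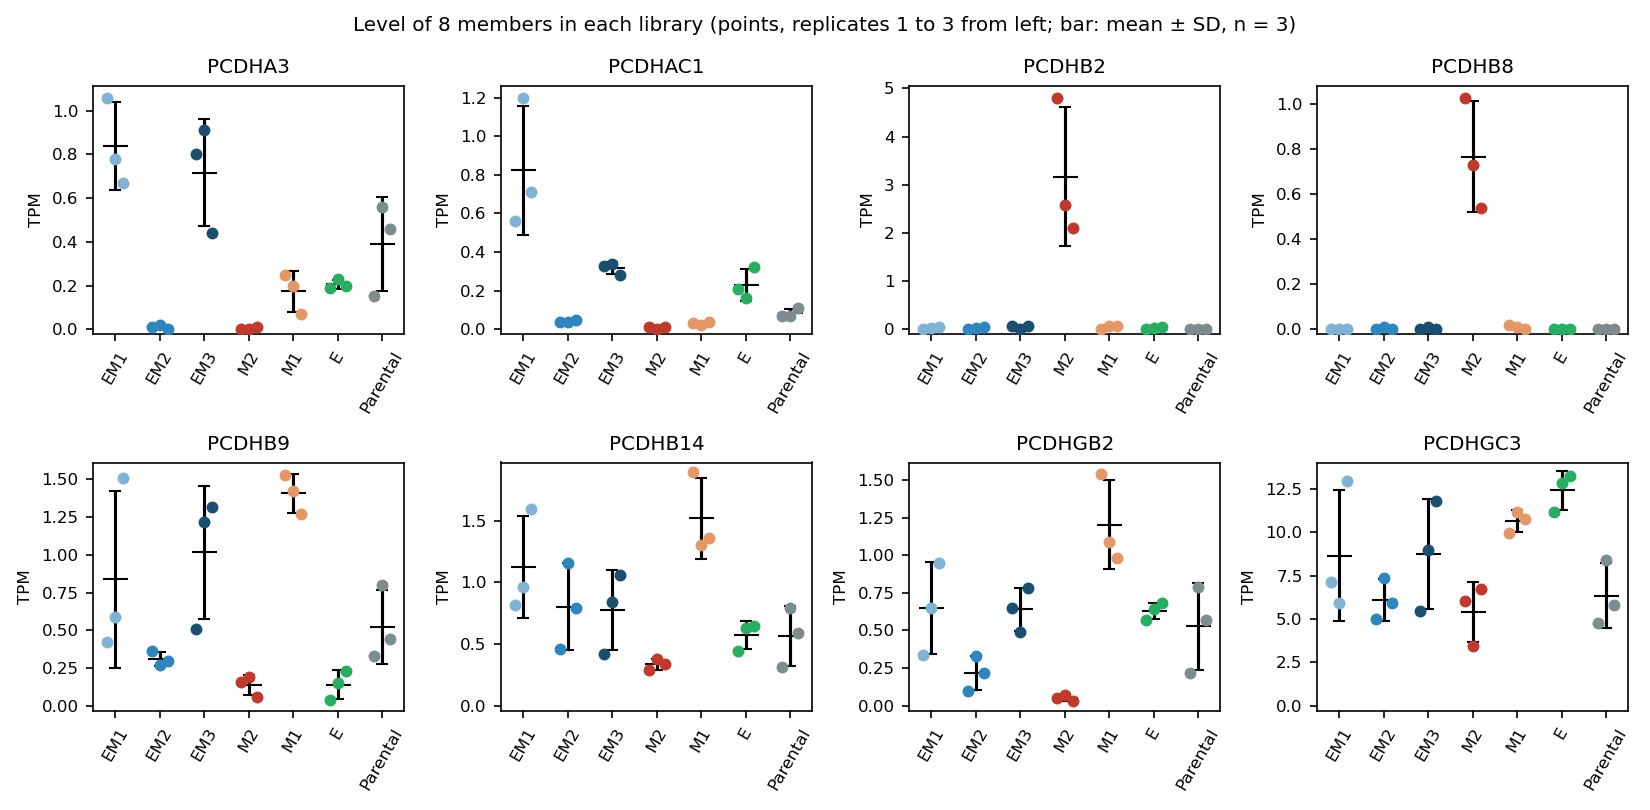
TPM of 8 members in each library (points) with mean ± SD per line (n = 3). PCDHB2 and PCDHB8 are highest in M2, and PCDHB9, PCDHB14 and PCDHGB2 are low in M2 and high in M1. PCDHA3 is near 0 in EM2 and M2, PCDHAC1 is near 0 in EM2, M2 and M1, and PCDHGC3 spreads with the library set in EM1 and EM3.

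The 3 EM clones were each set against E. EM1 against E gave 5 higher members (PCDHA3, PCDHAC1, PCDHB9, PCDHB10 and PCDHGC4) and 0 lower, while 17.9% of all genes passed (9.84% higher and 8.09% lower), so the share of members, 5 of 30, was near that background. PCDHA3 measured 1.06, 0.78 and 0.67 TPM in EM1, against 0.19, 0.23 and 0.20 TPM in E (log2 fold change 1.60 ± 0.47 SE; edgeR, BH-adjusted p = 0.0254). PCDHAC1 measured 0.56, 1.20 and 0.71 TPM, against 0.21, 0.16 and 0.32 TPM (log2 fold change 1.45 ± 0.39 SE; edgeR, BH-adjusted p = 0.0153). EM1 libraries lay above E libraries for all 5, yet all 5 calls were lost without E replicate 2 or EM1 replicate 2, and the count was 1 without E replicate 1, 2 without E replicate 3 and 2 without EM1 replicate 1. Without EM1 replicate 3, its short-set library, 3 members were higher and 2 lower, and only 3 calls were shared with the main fit. With no low-count filter 2 were higher and 2 lower. EM3 against E gave 1 higher member, PCDHGC4, with 0.46, 0.68 and 0.39 TPM in EM3, against 0.18, 0.12 and 0.05 TPM in E (edgeR, BH-adjusted p = 0.0193), while 17.3% of all genes passed (9.36% higher and 7.96% lower). That call ended without E replicate 2 (0.0538), E replicate 3 (0.105) or EM3 replicate 1 (0.0641). With the set term PCDHB9 (0.0233) and PCDHGB7 (0.0257) also passed, higher in EM3.

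EM2 had less alpha RNA than the other EM clones, with 0.17, 0.32 and 0.11 summed TPM, against 1.69 or more in every EM1 and EM3 library, a difference that was not tested. Against E it had 1 higher member, PCDHGC4, and 5 lower (PCDHA3, PCDHA4, PCDHAC1, PCDHAC2 and PCDHGB2), while 13.9% of all genes passed (6.95% higher and 6.95% lower). PCDHA3 had 2, 3 and 1 counts in EM2, against 55, 72 and 62 in E (log2 fold change -4.69 ± 0.63 SE; edgeR, BH-adjusted p = 6.18e-05). PCDHAC2 had 0, 0 and 2 counts, against 86, 81 and 121, a ratio of 0.00815 (0.000982 to 0.0297). PCDHAC1 had 8, 5 and 10 counts, against 47, 42 and 85 (edgeR, BH-adjusted p = 0.000351). The 4 tested alpha members were thus lower in EM2 as in M2, though a test between EM2 and M2 was not made. PCDHGC4 measured 0.80, 0.66 and 0.53 TPM in EM2, against 0.18, 0.12 and 0.05 TPM in E (log2 fold change 2.49 ± 0.51 SE; edgeR, BH-adjusted p = 0.003). PCDHA4 and PCDHGB2 passed narrowly (edgeR, BH-adjusted p = 0.0344 and 0.0262), and each missed without any one E library (0.0598 to 0.103 and 0.06 to 0.0712) and without EM2 replicate 1 (0.129 and 0.126). PCDHA4 also missed without EM2 replicate 3 (0.103). With the set term PCDHB3 also passed, lower in EM2 (0.0355).

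E against Parental gave 2 higher members, PCDHAC1 and PCDHAC2, while 10.9% of all genes passed (5.02% higher and 5.93% lower). PCDHAC1 had 47, 42 and 85 counts in E, against 12, 12 and 14 in Parental (log2 fold change 1.58 ± 0.41 SE; edgeR, BH-adjusted p = 0.0209). PCDHAC2 had 86, 81 and 121 counts, against 12, 12 and 18 (log2 fold change 2.17 ± 0.66 SE; edgeR, BH-adjusted p = 0.0414). The libraries did not overlap for either. The PCDHAC2 call ended without any one library of E or Parental (0.0883 to 0.136) and without EM3 replicate 1 (0.0517) or 2 (0.0512), and the PCDHAC1 call without E replicate 3 (0.126) or any one Parental library (0.0586 to 0.0632).

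Genes of related function were counted in the same fits. Since E lies wholly in the short set, the part of the set in these counts against E was not tested. Each list is to be read beside all genes of that comparison, of which 24.6% were higher and 26.8% lower in M2 than in E. Of 20 regulators of promoter choice and silencing, 6 were higher and 1 lower in M2 than in E, with a list median log2 fold change of 0.44 and 0.01 over all genes. The higher ones were the cohesin loader NIPBL, the cohesin release factors WAPL and PDS5A and the methylcytosine oxidases TET1, TET2 and TET3, and the lower one was MAU2, the partner of NIPBL. NIPBL, TET1 and TET2 were higher than E in EM1 and M1 as well. The list median was similar for the other clones: M1 against E had 0.51, and the EM clones had 0.54, 0.49 and 0.41 (EM1 to EM3). M2 against M1 had a list median of -0.05, with 1 higher and 3 lower. E against Parental had -0.43, with 0 higher and 3 lower (DNMT3B, SMC3 and NIPBL). The higher list median against E was therefore not particular to M2. CTCF averaged 23.8 ± 6.12 TPM in M2 and 18.8 ± 2.58 in E and did not pass. The DNA methyltransferase DNMT3B averaged 0.69 ± 0.43 TPM in M2, against 1.75 ± 0.62 TPM in M1, and was lower in M2 (edgeR, BH-adjusted p = 0.0189). DNMT3B was higher than E in EM1, EM2, EM3 and M1, and in M2 it did not pass. In EM1 its short-set library had 1.39 TPM and its long-set libraries 2.76 and 1.85 TPM, and the part of the set in its level was not tested.

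Genes that flank the clusters were lower in the clones than in E or did not pass, while E against Parental gave 3 higher (WDR55, ARAP3 and HDAC3) and 0 lower. Of 11 tested flanking genes, 0 were higher and 5 lower in M2 than in E (list median -0.52), among them WDR55, ZMAT2 and HDAC3, which were lower than E in EM1, EM2, EM3 and M1 too. Over all genes 24.6% were higher and 26.8% lower in M2 than in E, and these shares apply to each list below as well. WDR55 averaged 10.58 ± 2.64 TPM in M2 and 14.98 ± 0.22 in E. In M2 against M1, only RELL2 passed, lower in M2 (list median 0.02). Protocadherins outside the clusters were divided, with 4 higher (PCDH9, PCDH10, PCDH17 and PCDH18) and 4 lower (PCDH1, PCDH12, PCDH19 and PCDH20) of 9 tested in M2 against E (list median 0.12). PCDH17 measured 2.07, 2.42 and 1.33 TPM in M2, against 0.09, 0.04 and 0.03 TPM in E (edgeR, BH-adjusted p = 7.59e-08). PCDH20 measured 0.01, 0 and 0 TPM in M2, against 0.41, 0.54 and 0.67 TPM in E. Of 15 inner partners of protocadherins, 4 were higher and 4 lower in M2 than in E (list median -0.22), and the kinase FYN averaged 41.7 ± 23.1 TPM in M2, 16.2 ± 3.99 in M1 and 2.62 ± 0.62 in E. Of 6 tested neuronal markers 3 were higher (SYT1, MAP2 and SNAP25) and 2 lower (SYP and NEFL) in M2 than in E (list median 1.16). The microtubule protein MAP2 averaged 21.6 ± 6.94 TPM in M2 and 1.71 ± 0.27 in E, and it was lower than E in EM1, EM2, EM3 and M1. SYP, SNAP25 and NEFL were lower in M2 than in M1, and SYT1 and MAP2 were higher. The part of these genes in the members' levels was not tested.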

How the data were processed

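Polyadenylated RNA of 21 libraries (7 lines, 3 each) was sequenced. Per the submitters' processing notes, the authors used bcl2fastq 2.20.0.422, cutadapt 2.4, STAR 2.7.2b, RSEM 1.3.2 and hg38; the annotation release and strand setting are not given in the sources used here. Per the file headers, the deposited tables hold an expected count and a TPM per gene. All 127 member transcripts in the tables occur in GENCODE 29, which gave positions and symbols.

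After rounding, the expected counts went into edgeR 4.0.16 (R 4.3.3) for its robust quasi-likelihood test with TMM factors and a low-count filter by line, which kept 18632 genes. A single model held all 21 libraries, with a mean for each line, and had 14 residual degrees of freedom. P-values were BH-adjusted over all genes kept within a comparison, and 7 comparisons and the 7-line test were made. TPM was not tested in the main analysis. Ratios with few counts use counts pooled over 3 libraries, scaled by library size, with exact 95% intervals; 0 was set to 3 counts. The fits were tested on simulated data. Alternatives were no low-count filter, a filter at a mean CPM of 1, the size factors and the test of DESeq2 1.42.0, limma-voom and limma-trend (limma 3.58.1) on log2(TPM + 1) and log2(TPM + 0.1), the compared lines alone, a replicate block, the library set as a term and each library left out; M2 against M1 in the long set alone was added after seeing the data. Members may all be named; values per library were to be given for members reaching a mean of 1 TPM and called in a comparison, and for the leading member of each cluster, and the others shown per library were chosen after their values were seen. Non-members come from 6 lists. The members and lists were chosen with earlier results of these data known. Summaries used scipy 1.17.1, numpy 2.4.6 and pandas 2.3.3 under Python 3.11.15, and figures matplotlib 3.10.9.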

Additional observations from a re-analysis of the deposited data

How the results depend on the processing

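Of the 63 member calls, 43 held in every fit that tested the member, and no direction was reversed: 1710 of 1802 refits kept the call and 92 lost it. A mean CPM of at least 1 left 7 members tested, with 7 called among the 7 lines, 2 in EM1, 3 in EM2, 1 in M1 and 6 in M2 against E, 6 in M2 against M1 and 0 in E against Parental. The TPM tests, with either pseudocount, left only PCDHGC3, called among the 7 lines (1), in EM2 (1) and M2 (1) against E and in M2 against M1 (1), and not in EM1 (0), EM3 (0), M1 (0) or E against Parental (0). EM3 against E gave 3 calls with no low-count filter, 3 with DESeq2, 2 with limma-voom, 2 with the compared lines alone, 5 with the replicate block and 3 with the set term, against 1. M1 against E gave 11 with the compared lines alone, and E against Parental 4 with no filter. Leaving out 1 library gave 23 to 29 calls among the 7 lines, 0 to 5 in EM1, 4 to 7 in EM2, 0 to 3 in EM3, 6 to 9 in M1 and 19 to 22 in M2 against E, 22 to 27 in M2 against M1 and 0 to 3 in E against Parental. Same-number libraries correlated at -0.04 to 0.44 and never all above 0.1, so numbers were not taken as pairs; the replicate block gave 24 calls among the 7 lines, 6, 9, 5, 9 and 20 in EM1, EM2, EM3, M1 and M2 against E, 24 in M2 against M1 and 3 in E against Parental. M2 against M1 gave 21 in the long set alone. Low counts limit the 23 untested members. The count of members reaching 1 TPM and the share of not whole values (56.8% of member values at a tolerance of 0.1) depend on their thresholds. By counts, PCDHAC2 held 20.9% of the alpha cluster in EM1 and 12.6% in Parental, against 33.7% and 57.2% by TPM, and PCDHB9 22.9% of the beta cluster in EM3, against 49.4%.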
